A study of Homo sapiens with 12 samples.

Results

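N-acetyl-L-cysteine (NAC) was compared with no added antioxidant in UBQLN1 knockout (UBQLN1-/-, KO) human embryonic stem cells (hESCs), across all genes measured by RNA sequencing. The members are the libraries that the labels give as UBQLN1 KO with treatment NAC and as UBQLN1 KO with treatment "non" at normal O2, and they make up 4 of the 12 samples of the series, 2 per group. All 4 come from the hESC line WA26 and carry the UBQLN1 deletion, which was made with CRISPR/Cas9 and paired guides. The study grew 2 knockout clones and describes dimethyl sulfoxide as the vehicle, but the labels name neither the clone behind a library nor a vehicle, and no source used here says that the libraries of a group come from separate cultures. The p-values therefore rest on the spread between libraries of a group, which may be technical. That spread was estimated with the other groups of the count table included. The study's text describes many passages with NAC, but a short culture for its sequencing of normal against low oxygen. Passage number, culture time and batch may therefore differ between the groups, and such a difference cannot be told apart from NAC. The question of the comparison was how the transcriptome of the knockout cells changed after prolonged culture with an antioxidant.

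NAC enters cells, where it is deacetylated to cysteine, the amino acid that limits the synthesis of glutathione. Glutathione, the thioredoxins and the peroxiredoxins carry reducing power to peroxides and to oxidised protein thiols, and many of their genes are targets of the transcription factor NRF2. Metallothioneins are small cysteine-rich proteins that hold zinc and copper and are induced by metals through the factor MTF1. In hESCs these systems act beside a glycolytic metabolism, and the pluripotent state itself is held by POU5F1, SOX2 and NANOG together with FGF and NODAL signals.

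The untreated KO libraries held 35019694 and 39349967 counts and the NAC libraries held 40803323 and 31236968. Values are CPM, the counts of a gene per 1000000 counts of its library after scaling by edgeR's TMM method, and n is 2 libraries per group throughout. Of 28278 genes in the table, 15916 had enough counts to be tested. "Rose" and "fell" are used for a p under 0.05 from edgeR's quasi-likelihood test once adjusted by Benjamini-Hochberg over all tested genes, and a large change is one that in addition exceeds 1 on the log2 scale. UBQLN1 itself, on chromosome 9 from 83659968 to 83707958, was at 221 and 197 CPM in the 2 WT libraries. It was at 42.3 and 43.5 CPM in the untreated KO libraries and at 62.4 and 49.3 CPM with NAC. The remaining UBQLN1 reads thus were below WT in all 4 KO libraries. The log2 fold change of UBQLN1 with NAC was 0.38 (SE 0.12, adjusted p = 0.0196), and it was 0.20 without the first NAC library. With the trend on transcript length and GC content described below removed, it was 0.166 and was not called (adjusted p = 0.269). The 30 pluripotency markers were all detected, and their summed level was 13680 and 13530 CPM in untreated KO cells and 12630 and 12800 CPM with NAC, so the defining markers of the labelled cell type were present in every library. In these bulk libraries, fewer cells of a type and less of its RNA per cell cannot be told apart.

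A large part of the transcriptome moved with NAC. Of the tested genes, 3785 rose (23.8%) and 3315 fell (20.8%), and 482 rose by more than 1 on the log2 scale (3.03%) while 760 fell by more than 1 (4.78%). Beside the mean of the untreated KO libraries, the median difference over all genes was 0.017 in NAC library 1 and 0.027 in NAC library 2. Of the calls, 2860 rises and 2531 falls were called in the same direction with either NAC library left out. No large fall was smaller than 0.5 on the log2 scale in either NAC library. Among large rises, 30 were under 0.5 in NAC library 2 and 5 were under 0.5 in NAC library 1, which are described at the end. The 2 NAC libraries differed from each other more than the replicates of any other group did, with a chi-square, divided by its degrees of freedom, of 32.4 against 9.79 for the untreated KO libraries and 13.3 and 17.5 for the other groups.

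**Figure D1:**
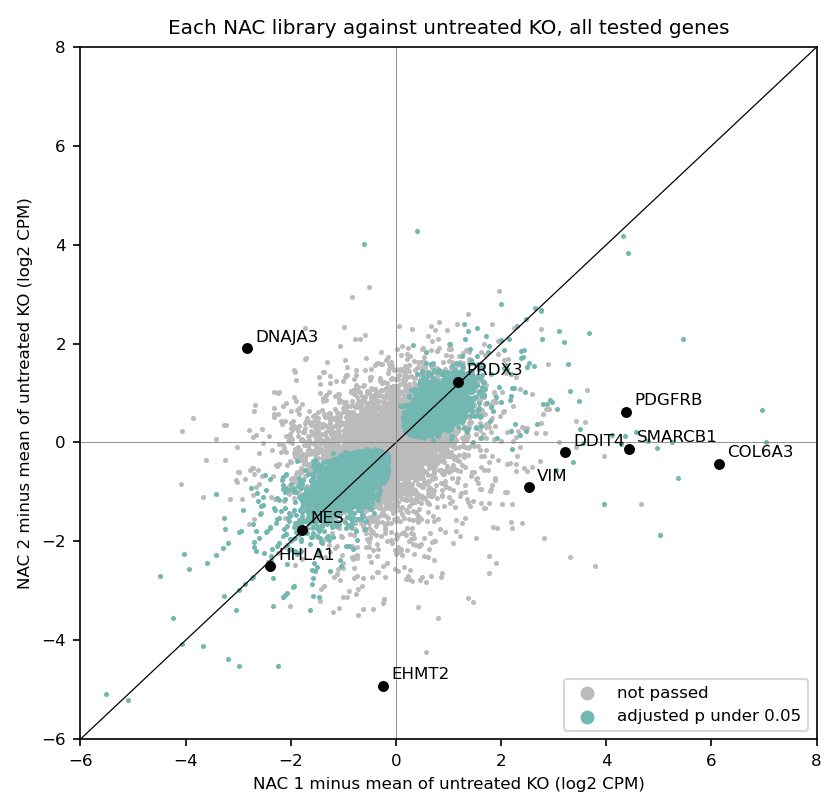
Each tested gene is a point, with the log2 CPM difference of NAC library 1 from the mean of the untreated KO libraries on the horizontal axis and that of NAC library 2 on the vertical axis. Most genes lie along the diagonal, and a group that includes COL6A3 and DDIT4 is high in NAC library 1 and near 0 in NAC library 2.

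The direction of change followed the base composition and length of the transcript. Among 15487 genes with a known transcript, the log2 fold change had a Spearman correlation of -0.49 with GC content and of -0.24 with length, a description across genes that share the same libraries. In NAC library 1 the correlation with GC content was -0.47 and in NAC library 2 it was -0.46. In the quintile of lowest GC content the median log2 fold change was 0.49 and 52.2% of genes rose. In the quintile of highest GC content the median was -0.42 and 41% fell. Between the untreated KO libraries, the medians of the same quintiles were 0.048 and -0.079. Whether this trend arose in the cells or during library preparation was not tested. When a smooth trend of each library on length and GC content was removed before the fit, 2382 genes rose (15%) and 1630 fell (10.2%), and 2979 genes kept their call and direction. Counts with the trend removed are therefore given for each gene list below. Values of single genes are from the uncorrected fit unless stated otherwise, and may shrink or lose their call with the trend removed. The counts of a list stand against 23.8% rises and 20.8% falls among all genes, or 15% and 10.2% with the trend removed, and a list whose shares lie near these is described by its values only. In total, 1483 rises and 1079 falls were called in the uncorrected fit, with the trend removed, and without either NAC library.

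**Figure D2:**
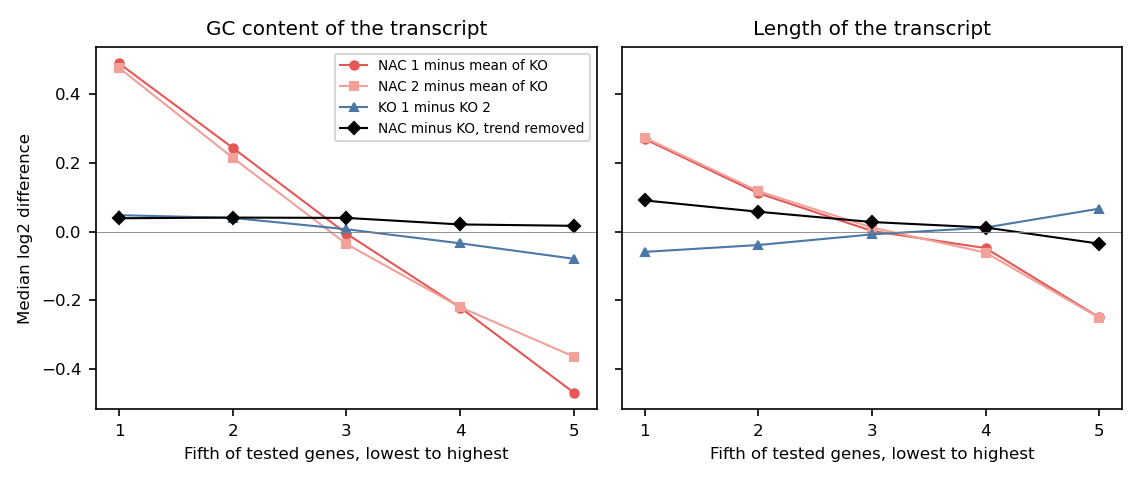
Median log2 difference of each NAC library from the mean of untreated KO cells in quintiles of GC content (left) and of transcript length (right), with the difference between the untreated KO libraries and the fold change after trend removal on the same axis. From the lowest to the highest GC content the medians run from 0.49 to -0.47 in NAC library 1 and from 0.48 to -0.36 in NAC library 2. After trend removal the medians lie between 0.017 and 0.041 over the quintiles of GC content. Over those of length they lie between -0.035 and 0.091.

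Among the rises that separated the groups most clearly was HSPA13, a microsomal member of the HSP70 family, on chromosome 21 from 14371115 to 14383484. It was at 48.8 and 47.1 CPM in untreated KO cells and at 134 and 121 CPM with NAC. Its log2 fold change was 1.41 (SE 0.09, adjusted p = 1.28e-05), or 0.69 with the trend removed. MRPL13, a protein of the large mitochondrial ribosomal subunit (chromosome 8, 120380761 to 120445402), was at 47.2 and 43.4 CPM and reached 110 and 117 CPM. RPS3A, a protein of the small cytosolic ribosomal subunit (chromosome 4, 151099624 to 151104642), was at 1377 and 1613 CPM and reached 4022 and 3883 CPM, and it kept a log2 fold change of 0.86 with the trend removed. GATM, which makes the creatine precursor guanidinoacetate, was at 6.99 and 7.34 CPM and reached 17.4 and 17.5 CPM. CPVL, a carboxypeptidase-like protein, was at 59.9 and 57.6 CPM and reached 139 and 140 CPM. GPM6A, a neuronal membrane glycoprotein, was at 12.3 and 12.8 CPM and reached 30.0 and 42.1 CPM. The choice by gap required these genes to be more abundant in both NAC libraries than in either untreated library. Of the 15916 tested genes, 5773 were higher and 5409 lower with NAC without overlap of the libraries. FAM221A, IFTAP, MOXD1, GRM3, ENPP4, GSKIP, MGAT4C, NXPH2 and PBK completed the 15 clearest rises. Their log2 fold changes lay between 1.28 (PBK) and 1.69 (MGAT4C). All 15 were called with the trend removed, at values from 0.57 (GSKIP) to 1.66 (GRM3), and most were smaller there by more than 1.5 times.

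The clearest falls included transcription factors and chromatin proteins. HHLA1, a gene with high expression in pluripotent cells, was at 52.7 and 52.5 CPM in untreated KO cells and at 9.94 and 9.22 CPM with NAC. It fell by 2.46 on the log2 scale (SE 0.11, adjusted p = 1.53e-06), and it fell by 2.43 with the trend removed, so the correction left it nearly in place. LMX1B, a LIM homeobox factor of midbrain and limb development (chromosome 9, 126613928 to 126701032), went from 32.3 and 32.8 CPM to 6.19 and 6.61 CPM. LHX4, a LIM homeobox factor of pituitary development (chromosome 1, 180230264 to 180278984), went from 22.4 and 21.2 CPM to 2.71 and 6.21 CPM. At LHX4 the NAC libraries differed from each other more than the untreated ones did. NES, which encodes the intermediate filament protein nestin of neural progenitors (chromosome 1, 156668763 to 156677407), went from 451 and 422 CPM to 126 and 129 CPM, a log2 fold change of -1.78 (SE 0.13, adjusted p = 1.28e-05). CHD3 and CHD5, are chromodomain helicases of nucleosome-remodelling complexes. CHD3 fell by 1.73 and CHD5 fell by 2.08 on the log2 scale. DACT1, an antagonist of WNT signalling, fell by 2.01, and PRDM16, a zinc finger regulator of brown fat and stem cells, fell by 1.93. PTH1R, the parathyroid hormone receptor, fell by 2.22, and CYP2B6, a drug-metabolising cytochrome P450, fell by 1.80. PDZD2, IQSEC2, PALM3, FOXI2 and PCDHGB5 completed the 15 clearest falls, with log2 fold changes between -2.17 (PCDHGB5) and -1.84 (FOXI2). All 15 were called with the trend removed. There the value was -0.998 for CHD3, -1.15 for CHD5, -1.05 for NES, -1.08 for PRDM16, -1.20 for PDZD2, -1.12 for IQSEC2 and -1.51 for LMX1B, each smaller by more than 1.5 times.

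**Figure D3:**
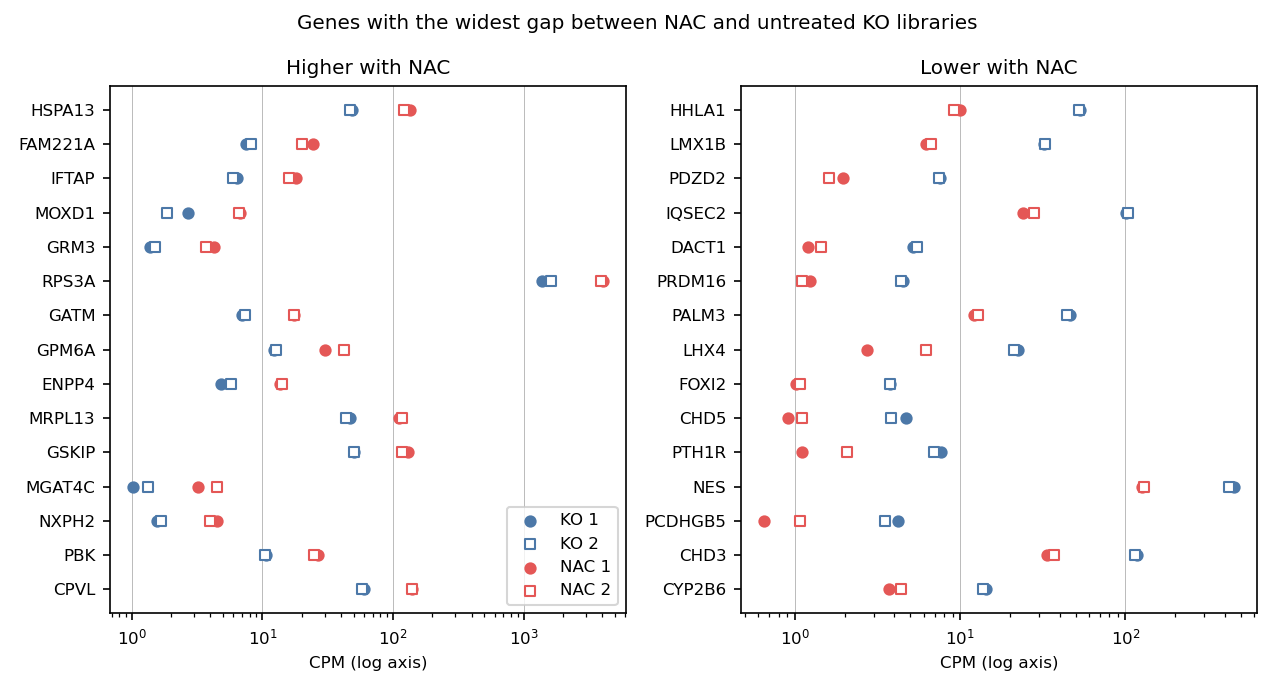
CPM in each library, on a log axis, for the 15 rises and the 15 falls with the widest gap between the NAC libraries and the untreated KO libraries. Because of this choice, both NAC libraries lie on the same side of both untreated libraries in every gene shown. HHLA1 falls from 52.6 to 9.58 CPM in the mean and HSPA13 rises from 47.9 to 127 CPM.

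Genes of cysteine and glutathione metabolism rose more often than they fell. Of 42 tested members, 20 rose and 2 fell, beside 23.8% and 20.8% of all genes, and the median log2 fold change was 0.29 (0.31 in NAC library 1 and 0.29 in NAC library 2). With the trend removed, 15 rose and 3 fell, beside 15% and 10.2% of all genes. GSTO1, an omega-class glutathione transferase (chromosome 10, 104235356 to 104267459), was at 59.8 and 65.7 CPM in untreated KO cells and at 133 and 143 CPM with NAC, a log2 fold change of 1.14 (SE 0.13, adjusted p = 3.87e-05), or 0.81 with the trend removed. MGST2, a microsomal glutathione transferase, was at 4.01 and 5.13 CPM and reached 10.05 and 10.8 CPM. The transferases MGST1, MGST3, GSTK1, GSTM3, GSTA4 and GSTZ1 also rose, whereas GSTP1, the most abundant transferase at 1244 and 1364 CPM without NAC, was at 1332 and 1485 CPM with NAC and did not pass the test. In the methionine cycle, AHCY, which splits S-adenosylhomocysteine, was at 617 and 645 CPM and reached 1191 and 992 CPM, and MAT2B, the regulatory subunit of methionine adenosyltransferase, rose by 1.06. CHAC2, an enzyme that degrades glutathione, rose by 1.12, and LANCL1, a glutathione-binding protein, rose by 0.86.

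The first step of glutathione synthesis did not move that way. GCLC, the catalytic subunit of glutamate-cysteine ligase, was at 54.3 and 50.9 CPM in untreated KO cells and at 38.0 and 44.7 CPM with NAC. It fell by 0.35 (SE 0.11, adjusted p = 0.0222) and by 0.53 with the trend removed, while the call was lost without NAC library 1 (log2 fold change -0.24, adjusted p = 0.126). The regulatory subunit GCLM was at 28.3 and 31.9 CPM and at 27.5 and 37.3 CPM, and glutathione synthetase GSS was at 43.0 and 42.02 CPM and at 47.1 and 40.6 CPM. Neither passed the test. The cystine importer SLC7A11 was at 38.6 and 32.0 CPM without NAC and at 23.0 and 36.1 CPM with it, a log2 fold change of -0.26 that did not pass. OPLAH, which recycles 5-oxoproline to glutamate, fell by 0.54, but its value with the trend removed was 0.29 and was not called. 2 members of the same metabolism went opposite ways in the NAC libraries. MAT2A, the catalytic subunit of methionine adenosyltransferase, was at 162 and 154 CPM without NAC, at 53.2 CPM in NAC library 1 and at 231 CPM in NAC library 2. CHAC1, a stress-induced glutathione-degrading enzyme, was at 21.5 and 20.1 CPM without NAC, at 53.9 CPM in NAC library 1 and at 17.5 CPM in NAC library 2. Neither gene passed the test.

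Among the peroxide-removing enzymes most genes rose. Of 36 tested peroxiredoxins, thioredoxins and related genes, 22 rose, 1 fell and 13 did not pass, with a median log2 fold change of 0.53 (0.54 in NAC library 1 and 0.40 in NAC library 2). With the trend removed, 14 rose and 3 fell, and without NAC library 1, 20 rose and 2 fell, beside 21.2% and 19.7% of all genes in that fit. PRDX3, the peroxiredoxin of the mitochondrial matrix (chromosome 10, 119167720 to 119178812), was at 233 and 239 CPM in untreated KO cells and at 535 and 553 CPM with NAC. PRDX4, the peroxiredoxin of the endoplasmic reticulum (ER; chromosome X, 23664262 to 23686397), was at 121 and 129 CPM and reached 288 and 261 CPM. Both more than doubled by these means, with log2 fold changes of 1.20 (SE 0.09, adjusted p = 1.28e-05) and 1.14 (SE 0.11, adjusted p = 1.94e-05), or 0.61 and 0.85 with the trend removed. PRDX1 and PRDX2 rose by 0.61 and 0.60, whereas PRDX5 and PRDX6 did not pass, at log2 fold changes of 0.35 and 0.14. TXN, cytosolic thioredoxin, was at 145 and 146 CPM and reached 234 and 255 CPM, but its log2 fold change of 0.75 became 0.05 with the trend removed. TXNRD1, the reductase that recharges thioredoxin, rose by 0.55 and by 0.35 with the trend removed. The cytosolic superoxide dismutase SOD1 rose by 0.61, the mitochondrial SOD2 did not pass at 0.19, and catalase (CAT) rose by 0.71. SESN3, a sestrin, was the member that fell, by 0.42.

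Of 32 tested NRF2 targets, 11 rose and 4 fell, beside 23.8% and 20.8% of all genes, with a median of 0.13. The corrected fit gave 7 rises and 7 falls, beside 15% and 10.2%. HMOX1, haem oxygenase 1 (chromosome 22, 35380361 to 35394214), was at 29.6 and 32.3 CPM in untreated KO cells and at 18.6 and 24.5 CPM with NAC, and fell by 0.53 (SE 0.15, adjusted p = 0.0133). NQO1, a quinone reductase often used as an NRF2 readout, was at 88.0 and 95.0 CPM and at 85.2 and 90.02 CPM, a log2 fold change of -0.06 that did not pass, and it fell by 0.42 with the trend removed. The pentose phosphate enzymes PGD and TALDO1 rose by 0.32 and 0.34. AKR1C1, an aldo-keto reductase, was at 1.19 and 0.850 CPM without NAC, at 11.8 CPM in NAC library 1 and at 1.84 CPM in NAC library 2. Its log2 fold change of 2.75 became 0.85 without NAC library 1 (adjusted p = 0.106).

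Most metallothionein genes fell with NAC. Of 8 tested, 5 fell (MT1E, MT1G, MT1H, MT1M and MT2A), 1 rose (MT1X) and 2 did not pass (MT1A and MT1F). With the trend removed 6 fell and none rose. The summed level of the 8 changed less, from 355.3 and 410.4 CPM in untreated KO cells to 343.5 and 340.2 CPM with NAC. MT1H was at 7.89 and 10.1 CPM in untreated KO cells and at 3.55 and 2.34 CPM with NAC, and fell by 1.60 (SE 0.21, adjusted p = 0.000105). MT1M was at 2.01 and 2.31 CPM and at 1.02 and 0.334 CPM, and fell by 1.63. MT1X, 1 of the 3 most abundant members, was at 102 and 131 CPM without NAC and at 146 and 154 CPM with it, a log2 fold change of 0.37 (SE 0.11, adjusted p = 0.0194), or 0.06 with the trend removed, which was not called. Metallothionein genes are near-identical copies in a cluster on chromosome 16, and reads that match several copies are left out by the counting used, so the split between them is uncertain. The promoters of MT1H and MT1X are shown because these neighbours moved in opposite directions. They were taken from RefSeq (GRCh38.p14), run from 250 bases before to 50 after the annotated start on the plus strand, and lie at chr16:56669564-56669863 and chr16:56682220-56682519. Capitals mark the core of the metal response element, searched as TGCACNC or TGCGCNC on both strands with overlaps allowed.
MT1H: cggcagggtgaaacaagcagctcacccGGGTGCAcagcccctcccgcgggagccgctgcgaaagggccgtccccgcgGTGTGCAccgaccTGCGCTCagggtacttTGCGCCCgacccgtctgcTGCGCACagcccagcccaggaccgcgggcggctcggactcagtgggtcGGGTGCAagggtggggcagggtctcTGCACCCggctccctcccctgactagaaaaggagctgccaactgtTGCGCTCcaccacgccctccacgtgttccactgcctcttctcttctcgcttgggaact
MT1X: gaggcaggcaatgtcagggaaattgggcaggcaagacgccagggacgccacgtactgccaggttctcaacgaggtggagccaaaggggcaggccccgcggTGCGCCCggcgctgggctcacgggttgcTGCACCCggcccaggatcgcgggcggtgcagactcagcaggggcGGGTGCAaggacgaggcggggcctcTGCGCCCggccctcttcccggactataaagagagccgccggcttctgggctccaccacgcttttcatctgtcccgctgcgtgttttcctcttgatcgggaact
The MT1H window held 8 matches, 5 on the plus and 3 on the minus strand, and the MT1X window held 4, 3 on the plus and 1 on the minus strand. Of 35116 promoters of the same length, 29.6% held at least 1 match, 0.601% held at least 4 and 0.0199% held at least 8. A match describes these letters only. A promoter was at hand for 3 of the 8 tested members.

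Iron genes were divided. Of 23 tested, 8 rose and 3 fell (median 0.13), beside 23.8% and 20.8% of all genes, whereas with the trend removed 4 rose and 5 fell (median 0.18). TFRC, the transferrin receptor (chromosome 3, 196012511 to 196082153), was at 228 and 206 CPM in untreated KO cells and at 532 and 500 CPM with NAC, a log2 fold change of 1.25 (SE 0.09, adjusted p = 1.28e-05), or 1.02 with the trend removed. SLC40A1, the iron exporter ferroportin, was close to the detection limit at 0.0542 and 0.146 CPM without NAC and at 1.83 and 0.635 CPM with it, and its call was lost without NAC library 1 (adjusted p = 0.0681). The iron chaperones PCBP1 and PCBP2 fell by 0.51 and 0.21. The ferritin heavy chain FTH1 was at 339 and 452 CPM and at 330 and 340 CPM and did not pass, while the light chain FTL rose by 0.34, a call that was lost without NAC library 1.

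Of 29 tested members of the ER unfolded protein response, 15 rose, 2 fell and 12 did not pass (median 0.31). After trend removal 8 rose and 2 fell (median 0.19). HSPA5, the main ER chaperone, was at 1003 and 1000 CPM in untreated KO cells and at 1168 and 1305 CPM with NAC, and rose by 0.30. PDIA3, a disulfide isomerase, was at 709 and 702 CPM and reached 1029 and 1094 CPM, and SEL1L, a subunit of the ER-associated degradation ligase, rose by 0.70. Of 34 tested targets of ATF4, the factor of the integrated stress response, 11 rose and 5 fell with a median of 0.01, and 7 rose and 3 fell with the trend removed (median 0.12). The uncorrected median is close to 0, and it took the other sign under both other scalings (-0.02 and -0.01). SLC7A5, the large neutral amino acid transporter (chromosome 16, 87830023 to 87869507), was at 597 and 642 CPM and at 250 and 264 CPM, and fell by 1.27 (SE 0.09, adjusted p = 1.28e-05). DDIT4, an inhibitor of mTORC1 that is also a hypoxia target, passed the test with both NAC libraries and did not pass without NAC library 1.

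Most subunits of the proteasome and of the folding chaperonin rose. Of 44 tested proteasome genes, 30 rose and 2 fell (median 0.61, or 0.27 with the trend removed, where 24 rose and 3 fell). PSMB1, a subunit of the catalytic core, was at 203 and 214 CPM in untreated KO cells and at 466 and 434 CPM with NAC. Of 13 chaperonin and prefoldin genes, 12 rose, and 8 rose with the trend removed. VBP1, a prefoldin subunit (chromosome X, 155197007 to 155239841), was at 61.1 and 56.9 CPM and reached 141 and 129 CPM. CCT2 and CCT4, subunits of the chaperonin ring, rose by 0.94 and 0.90. Of 26 ubiquitin genes and ubiquitin receptors, the class to which UBQLN1 belongs, 8 rose and 8 fell (median -0.07), and with the trend removed 4 rose and 4 fell (median 0.09), beside 15% and 10.2% of all genes. UBQLN2, the closest paralogue, was at 73.8 and 73.5 CPM and at 43.4 and 50.4 CPM and fell by 0.65. In autophagy, LAMP2 of the lysosomal membrane and ATG5 of the conjugation machinery rose by 1.09 and 1.02, and the initiating kinase ULK1 fell by 1.18, among 21 rises and 7 falls of 48 genes (19 and 4 with the trend removed).

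Most nuclear genes of the respiratory chain rose with NAC. Of 37 genes of complex I, 28 rose and none fell, and all 26 genes of complexes II to IV rose, with medians of 0.69 and 0.75. With the trend removed, 19 and 16 rose, none fell, and the medians were 0.31 and 0.38. The medians for complex I were 0.64 in NAC library 1 and 0.68 in NAC library 2. COX6A1, a subunit of cytochrome c oxidase, was at 230 and 248 CPM in untreated KO cells and at 498 and 694 CPM with NAC. COX7A2 of the same complex was at 91.5 and 106 CPM and reached 224 and 236 CPM. NDUFS4, an accessory subunit of complex I, was at 28.8 and 30.5 CPM and reached 62.2 CPM in both NAC libraries. These genes have short transcripts, with a median length of 691 bases for complex I against 3231 for all tested genes. ATP synthase showed 14 rises and no fall among 18 genes (9 with the trend removed), and mitochondrial import showed 24 rises and 1 fall among 37 (12 and 1 with the trend removed). The uncorrected fall was TOMM40, of which 26.8% of the transcript is repeated on alternate scaffolds. In genome maintenance, TFAM, the packaging factor of mitochondrial DNA, was at 118 and 121 CPM and reached 186 and 210 CPM, while the mitochondrial polymerases POLRMT and POLG fell by 0.31 and 0.36. All 3 values changed with the trend removed, to 0.18 for TFAM, 0.48 for POLRMT and 0.28 for POLG.

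Most ribosomal protein genes rose as well. Of 83 cytosolic ribosomal protein genes, 73 rose and none fell, with medians of 0.66 in NAC library 1 and 0.64 in NAC library 2, and 54 rose and 2 fell with the trend removed. Their summed level was 66770 and 72210 CPM in untreated KO cells, 114300 CPM in NAC library 1 and 109200 CPM in NAC library 2. RPLP0, the stalk protein of the large subunit, was at 2673 and 2870 CPM and reached 6044 and 5041 CPM. EEF1A1, the elongation factor that brings aminoacyl-tRNA to the ribosome, was at 10348 and 10537 CPM and reached 23958 and 20197 CPM. It belongs to 57 translation initiation and elongation factors, of which 33 rose and 8 fell (18 and 9 with the trend removed), and of 37 aminoacyl-tRNA synthetases 13 rose, 3 fell and 21 did not pass (8 rose and 3 fell with the trend removed). Of 78 mitochondrial ribosomal protein genes, 62 rose and none fell, and 38 rose with the trend removed. Some of these genes have processed pseudogenes or scaffold copies that can take reads, and 19 of the 83 cytosolic ones had at least 10% of their transcript repeated on alternate scaffolds.

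**Figure D4:**
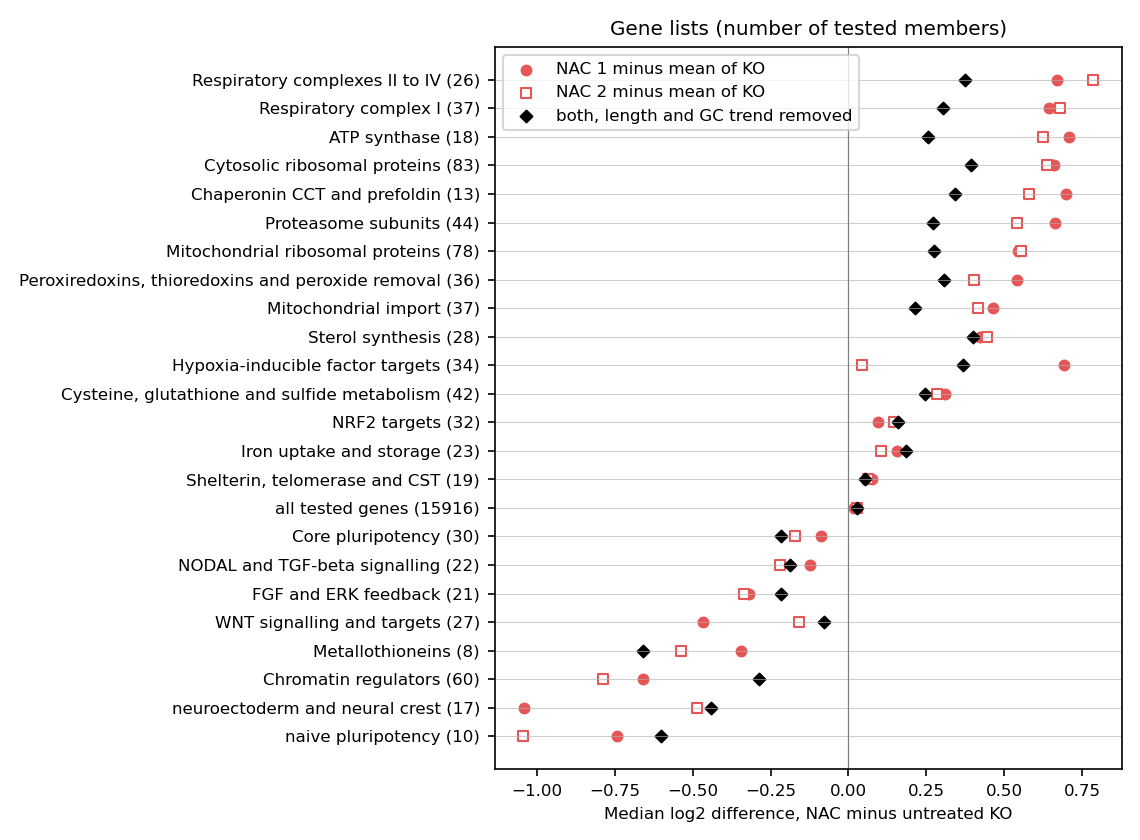
Median log2 difference from untreated KO cells per gene list, in each NAC library and for both after removal of the length and GC trend, with the number of tested members in brackets. Respiratory chain, ribosomal protein and proteasome lists lie on the positive side and chromatin regulators on the negative side, at -0.66 in NAC library 1 and -0.79 in NAC library 2, and the corrected medians lie closer to 0 for most lists.

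Most genes of sterol synthesis rose. Of 28 tested, 17 rose, 4 fell and 7 did not pass, and 19 rose and 2 fell with the trend removed, beside 15% and 10.2% of all genes. IDI1, the isopentenyl diphosphate isomerase, was at 104 and 99.9 CPM in untreated KO cells and reached 237 and 215 CPM with NAC, and MSMO1, a sterol oxidase, was at 166 and 165 CPM and reached 382 and 345 CPM. ACAT2, EBP, SC5D, HSD17B7, FDPS and FDFT1 rose as well. The regulators SREBF1 and SREBF2 fell by 0.62 and 0.42, and these falls were not kept with the trend removed (0.17, not called, and 0.24, a rise). In fatty acid metabolism, FASN, fatty acid synthase (chromosome 17, 82078338 to 82098294), was at 2498 and 2627 CPM and at 1041 and 1152 CPM. FASN fell by 1.23 (SE 0.10, adjusted p = 1.59e-05), and by 0.24 with the trend removed. The elongase ELOVL6 and the oxidation enzymes HADH and ETFA rose by 0.78, 0.83 and 0.88.

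Telomere genes were of interest to the study. Of 19 tested genes of shelterin, telomerase and the CST complex, 7 rose and 4 fell, beside 23.8% and 20.8% of all genes. After trend removal 4 rose and 3 fell, beside 15% and 10.2%, so the list as a whole lay near all genes and its members are given singly. POT1, the shelterin subunit that binds the single-stranded overhang (chromosome 7, 124822386 to 124929983), was at 22.8 and 21.0 CPM in untreated KO cells and at 49.0 and 41.3 CPM with NAC, a log2 fold change of 1.04 (SE 0.12, adjusted p = 3.89e-05), or 0.44 with the trend removed. TINF2, which bridges the shelterin proteins, was at 22.5 and 26.7 CPM and reached 39.5 and 37.5 CPM, and its log2 fold change of 0.64 was the same with the trend removed. ACD, which recruits telomerase, was at 37.9 and 42.2 CPM and at 26.6 and 28.1 CPM and fell by 0.55. TERF1, a double-strand binding subunit, was at 498 and 500 CPM without NAC, at 593 CPM in NAC library 1 and at 942 CPM in NAC library 2. Its log2 fold change was 0.62, which was 0.25 without NAC library 2 (adjusted p = 0.0510) and 0.05 with the trend removed. TERT, the catalytic subunit of telomerase (chromosome 5, 1253147 to 1295068), was at 20.7 and 26.9 CPM and at 12.6 and 16.9 CPM, and fell by 0.69 (SE 0.18, adjusted p = 0.00749), while its value with the trend removed was 0.11 and was not called. The telomerase proteins DKC1, NOP10 and NHP2 rose by 0.57, 0.59 and 0.36. The RNA subunit TERC was at 0.136 and 0.194 CPM and at 0.365 and 0.401 CPM, too few reads to pass.

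Of 44 tested DNA repair genes, 15 rose and 6 fell, beside 23.8% and 20.8% of all genes. The corrected fit gave 8 rises and 5 falls, near the 15% and 10.2% of all genes. XRCC5 and XRCC6, which form the Ku dimer that binds broken ends, rose by 0.58 and 0.79, while their kinase partner PRKDC (chromosome 8, 47773111 to 47960178) was at 674 and 571 CPM in untreated KO cells and at 244 and 269 CPM with NAC and fell by 1.28. PRKDC fell by 0.78 with the trend removed. PARP1, a sensor of strand breaks, was at 812 and 768 CPM and at 527 and 443 CPM and fell by 0.70. APEX1, the endonuclease of base excision repair, rose by 0.62, while OGG1, the glycosylase that removes oxidised guanine, was at 23.7 and 23.1 CPM and at 27.0 and 28.6 CPM and did not pass. In the cell cycle, of 38 mitosis genes 16 rose and 4 fell (median 0.18), and 10 rose and 7 fell with the trend removed. MKI67, a proliferation marker, was at 166 and 120 CPM and at 54.7 and 50.3 CPM and fell by 1.44, and it fell by 0.73 with the trend removed. The replication clamp PCNA rose by 0.84, and of 41 replication genes 22 rose and 6 fell, with a median of 0.33, against 12 rises, 2 falls and a median of 0.04 once the trend was removed.

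Pluripotency genes changed unevenly. Of 30 tested, 6 rose and 12 fell, and 5 rose and 10 fell with the trend removed. POU5F1 and SOX2 did not pass, with POU5F1 at 143 and 148 CPM in untreated KO cells, 171 CPM in NAC library 1 and 110 CPM in NAC library 2, and part of its transcript repeated on alternate scaffolds. DNMT3B, a de novo DNA methyltransferase of pluripotent cells (chromosome 20, 32762385 to 32809359), was at 2553 and 2455 CPM and at 1136 and 1418 CPM, and fell by 0.97 (SE 0.10, adjusted p = 2.67e-05), or by 0.59 with the trend removed. L1TD1, an RNA-binding protein of hESCs, was at 536 and 486 CPM and at 317 and 320 CPM, and its fall of 0.68 became 1.07 with the trend removed. ZIC2, a zinc finger factor, fell by 1.04. DPPA4 and ZFP42, also marks of the pluripotent state, rose by 0.70 and 0.61. Markers of the naive state were low in abundance, and 4 of 10 fell (KLF4, TFCP2L1, DPPA5 and TBX3) while none rose. After trend removal 4 fell and 1 rose.

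Markers of neuroectoderm fell more often than they rose. The summed level of mesendoderm markers was lower with NAC, and that of definitive endoderm markers was higher. Of 17 tested neuroectoderm and neural crest markers 9 fell and none rose, and their summed level over 23 listed genes was 1592 and 1641 CPM in untreated KO cells and 951 and 1075 CPM with NAC. With the trend removed 5 fell and 1 rose. SIX3, an eye and forebrain homeobox factor (chromosome 2, 44941702 to 44946071), was at 38.8 and 43.0 CPM and at 16.1 and 23.4 CPM. ZIC1 was at 168 and 181 CPM and at 99.0 and 103 CPM, and SOX9 fell by 0.84. SOX1, an early neural factor, was at 9.16 and 11.1 CPM and at 2.87 and 7.85 CPM and did not pass. MIXL1, a mesendoderm factor, fell from 2.82 and 2.60 CPM to 0.679 and 1.14 CPM. In all, 2 of 9 mesendoderm markers fell, with 2 falls also when the trend was removed. Of 7 tested definitive endoderm markers 2 rose and none fell, and with the trend removed 1 rose and 1 fell. The 16 listed endoderm markers summed to 90.98 and 89.21 CPM in untreated KO cells and to 132.9 and 133.7 CPM with NAC.

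Genes of the signals that hold the pluripotent state fell more often than they rose. Of 21 FGF and ERK feedback genes 3 rose and 9 fell (5 and 9 with the trend removed), and of 22 NODAL and TGF-beta genes 2 rose and 7 fell (1 and 6). SPRY4, a feedback inhibitor of ERK signalling, was at 274 and 266 CPM in untreated KO cells and at 162 and 170 CPM with NAC and fell by 0.70, and DUSP5, an ERK phosphatase, fell by 0.71. DUSP6, another ERK phosphatase, rose by 0.38. LEFTY1, a NODAL antagonist and target, was at 3.55 and 3.33 CPM and at 1.88 and 1.34 CPM, and SMAD7, the inhibitory SMAD (chromosome 18, 48919853 to 48950965), was at 45.2 and 52.0 CPM and at 18.9 and 24.3 CPM and fell by 1.18. Of 27 WNT genes 5 rose and 11 fell, and 5 rose and 5 fell with the trend removed. CTNNB1, which encodes beta-catenin (chromosome 3, 41194741 to 41260096), was at 557 and 536 CPM and reached 913 and 989 CPM, and TCF7L1, a repressive partner of beta-catenin, fell by 0.89. Early-response transcription factors showed 8 falls and no rise among 25, of which 2 falls were kept with the trend removed.

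Chromatin regulators had the highest share of falls among the gene lists with at least 10 tested members. Of 60 tested, 47 fell and 3 rose, and 20 fell by more than 1 on the log2 scale, beside 4.78% of all genes. The median was -0.66 in NAC library 1 and -0.79 in NAC library 2. With the trend removed 28 fell and 2 rose, with a median of -0.29. KMT2D, a histone H3 lysine 4 methyltransferase (chromosome 12, 49018975 to 49060794), was at 181 and 155 CPM in untreated KO cells and at 44.7 and 60.2 CPM with NAC. CREBBP, a histone acetyltransferase (chromosome 16, 3725054 to 3880713), was at 129 and 119 CPM and at 38.8 and 43.8 CPM. KMT2D fell by 1.68 and CREBBP fell by 1.59 on the log2 scale, and both were lower with the trend removed as well, at -0.56 and -0.67. ARID1A, a subunit of the SWI/SNF remodelling complex, and EP300, an acetyltransferase, fell by 1.46 and 1.23. EED, HDAC1 and HDAC2 rose. The list has a median transcript length of 8464 bases against 3231 for all tested genes.

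NAC library 1 stood apart in a set of mesenchymal genes. It held 16 genes with at least 50 counts that had 0 counts in the other 3 libraries, whereas NAC library 2 and the untreated KO libraries held none such. DCN, the matrix proteoglycan decorin, had 1809 counts in NAC library 1 and COL3A1, a fibrillar collagen chain, had 1114, both against 0 in each of the other 3 libraries. PRRX1, a mesenchymal homeobox factor, had 403 counts, the collagenase MMP1 304 and the proteoglycan LUM 148, again against 0. Most of these genes did not pass the filter on low counts. The 29 mesenchyme and fibroblast markers summed to 918.7 and 936.2 CPM in untreated KO cells, 1567 CPM in NAC library 1 and 761.4 CPM in NAC library 2. None was at 0 counts in NAC library 1, 7 were at 0 in NAC library 2 and 7 in each untreated library. COL6A3, a collagen VI chain, had 42 and 72 counts without NAC, 3965 in NAC library 1 and 31 in NAC library 2. Of the 22 tested markers 7 rose and 2 fell (median 0.88), with the trend removed 10 rose and 1 fell (median 1.20), and without NAC library 1, 2 rose and 5 fell (median -0.10).

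**Figure D5:**
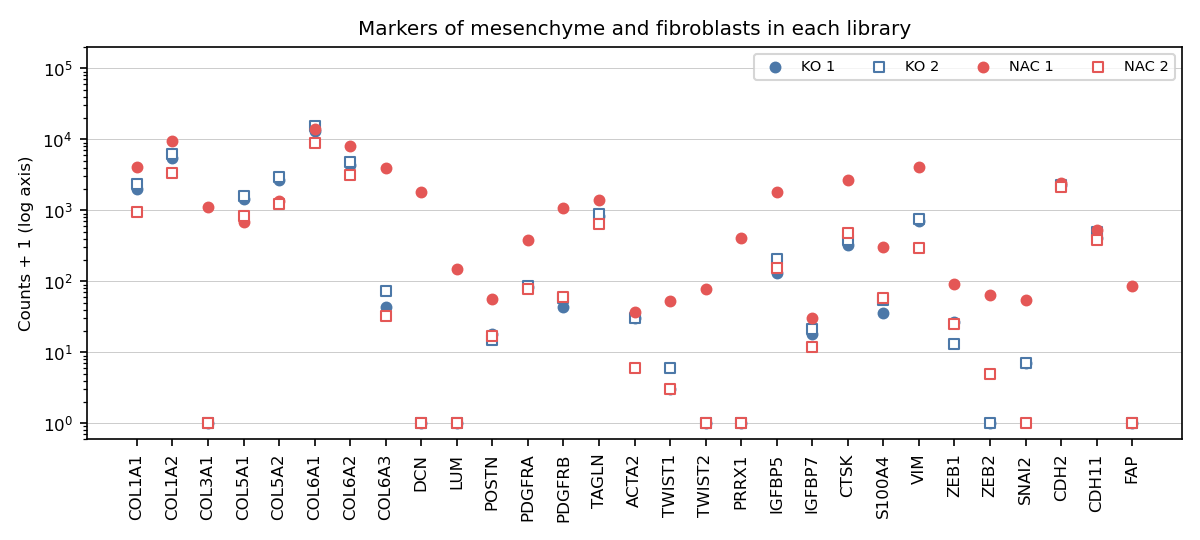
Counts of the 29 mesenchyme and fibroblast markers in the untreated KO libraries and the NAC libraries, on a log axis of counts plus 1. NAC library 1 has reads for every marker, among them 1809 for DCN and 1114 for COL3A1. NAC library 2 and the untreated libraries have 0 for both. Against the untreated libraries, NAC library 2 is lower for some markers (VIM 295 against 696 and 752) and higher for others (CTSK 473 against 323 and 377).

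Other calls that rested on 1 NAC library were of several kinds. The 30 large rises that were under 0.5 in NAC library 2 included the matrix genes COL6A3, FBN1, LOX, FMOD and ECM1, the receptors PDGFRA, DDR2 and IL1R1, and the nuclear RNA NEAT1, which had 38 and 32 counts without NAC, 626 in NAC library 1 and 30 in NAC library 2. By this choice the rises of the 30 rested on NAC library 1. Of these 30, SMARCB1 and IFI27L2 are repeated on alternate scaffolds, which can shift reads between copies. The 5 large rises under 0.5 in NAC library 1 were MIR12136, RRN3, SCAMP3, TAL1 and ZNF883, of which RRN3, SCAMP3 and ZNF883 are repeated on such scaffolds. TAL1, a haematopoietic factor, had 141 and 171 counts without NAC, 216 in NAC library 1 and 329 in NAC library 2. DNAJA3, EHMT2, ABR and AATF also differed widely between the NAC libraries and are repeated on alternate scaffolds, so they are uncertain.

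Targets of hypoxia-inducible factors were higher in NAC library 1 than in NAC library 2. Of 34 tested, 15 rose and 2 fell, beside 23.8% and 20.8% of all genes, and 12 rose and 1 fell with the trend removed. Without NAC library 1, 10 rose and 6 fell, beside 21.2% and 19.7%. The median difference from untreated KO cells was 0.69 in NAC library 1 and 0.05 in NAC library 2. DDIT4 (chromosome 10, 72273919 to 72276036) was at 17.3 and 17.4 CPM in untreated KO cells, at 163 CPM in NAC library 1 and at 15.2 CPM in NAC library 2. Its log2 fold change was 2.36 (adjusted p = 0.0144) with both NAC libraries and -0.20 (adjusted p = 0.196) without NAC library 1. Some targets were higher in both NAC libraries. P4HA1, a collagen prolyl hydroxylase (chromosome 10, 73007217 to 73096974), was at 36.5 and 38.3 CPM and reached 116 and 73.3 CPM. SLC2A1, the glucose transporter GLUT1 (chromosome 1, 42925353 to 42958893), was at 218 and 228 CPM and reached 445 and 361 CPM, and it rose by 0.85 and by 1.08 with the trend removed. FAM162A, a mitochondrial protein, was at 39.6 and 41.6 CPM and reached 82.1 and 81.7 CPM. PGK1, a glycolytic kinase, was at 532 and 551 CPM and reached 1354 and 939 CPM. VEGFA, the angiogenic growth factor, was at 21.98 and 23.2 CPM and at 24.8 and 20.4 CPM and did not pass. The part of the mesenchymal reads in the hypoxia targets was not tested.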

How the data were processed

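RNA-sequencing libraries of WA26 hESCs were made from total RNA with the Illumina TruSeq RNA kit. Per the study's methods, trim-galore was used by the authors for trimming, hisat2 for alignment to hg38 and featureCounts, at its defaults, for counting. What was deposited is 1 table of raw counts, with no normalization by the authors. FastQC 0.11.9 is named in the submitters' processing notes. The counting annotation is not given in the sources used here. By default featureCounts ignores strand and drops reads that match several places or several genes, so overlapping, antisense and copied genes can lose or gain reads.

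Libraries were grouped by the labels of genotype and treatment. One fit held 8 libraries in 4 groups of 2 (WT, KO, KO at 5% O2, KO with NAC), since the other groups add to the estimate of the spread, and the contrast was KO with NAC minus untreated KO. Genes were filtered with filterByExpr (minimum count 10), scaled by TMM and compared in edgeR 4.0.16 (R 4.3.3) by its quasi-likelihood test. The p-values were adjusted by Benjamini-Hochberg over 15916 genes. The difference of each NAC library from the mean of untreated KO cells was taken on log2 CPM values (2 counts added as prior) and has no test. The 4 WT samples with NAC or low O2 were not analysed here. A few genes are not reported here. With 2 libraries a group, precision is limited by their number. Coordinates are those of the hg38 annotation supplied with the reference.

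Genes were named as the 15 per direction with the widest gap between the groups (adjusted p under 0.05, mean of at least 1 log2 CPM, no scaffold copy), members of 57 gene lists with the largest change or level or a described role, the genes with the largest difference between the NAC libraries, and UBQLN1. A scaffold copy means that at least 10% of the 31-base words of the transcript recur on alternate, random or unplaced scaffolds. The members and the lists were chosen with earlier results of these data known, so they give no independent support.

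The alternatives were DESeq2 1.42.0, RLE and upper quartile scaling, 2 other filters, a replicate block, a fit of the 4 libraries alone, subtraction of each library's joint trend on GC content and transcript length (fitted with mgcv 1.9.3, known for 97.3% of tested genes), that trend with the block, each library left out, the study's criteria of an absolute log2 fold change over 1 with an unadjusted p under 0.05, and a prior count of 0.5. The test was tried on simulated counts of this comparison with 200 changed genes among 15606 tested, of which 191 were recovered with 5 false calls. With a length and GC trend added to the simulation (15634 genes), false calls numbered 3657 before and 7 after its removal. Every simulated gene had the same relative spread between replicates, and no library had an excess like that of NAC library 1. These numbers therefore do not give the rate of false calls in the real libraries.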

Additional observations from a re-analysis of the deposited data

How the results depend on the processing

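The counts of 3785 rises, 3315 falls, 482 large rises and 760 large falls stayed within 1.5 times under DESeq2, RLE and upper quartile scaling, both other filters, the replicate block and the fit of the 4 libraries alone. Without a filter on low counts, however, edgeR estimated an infinite number of prior degrees of freedom (7.61 with the filter), so its p-values there did not use the spread of each gene's own replicates and that count says nothing about stability. Removing the length and GC trend moved them to 2382, 1630, 163 and 178, and removing it together with the replicate block moved them to 2032, 1383, 126 and 142. The trend also moved the share of rises among calls from 53.3% to 59.4% and among large calls from 38.8% to 47.8%. The study's criteria gave 577 rises and 858 falls. With 1 library left out in turn, rises ranged from 2634 to 4070, falls from 2397 to 3521, large rises from 394 to 746 and large falls from 648 to 1104. The 746 large rises were found without NAC library 2. DDIT4 ranged from -0.20 without NAC library 1 to 3.23 without NAC library 2. The replicate block alone gave 3645 rises, 3232 falls, 436 large rises and 738 large falls. No pairing by replicate number was detected, as the differences between replicates 1 and 2 of the untreated and NAC groups correlated at -0.01 over genes. This correlation cannot show whether libraries with the same number share a clone or culture. Of 741 list medians recomputed, 32 changed sign, 8 of the lists with the trend removed and 5 without NAC library 1. Under RLE, upper quartile scaling or DESeq2, 1 list changed sign, ATF4 targets. The median of all genes stayed between -0.006 and 0.051. Genes near 0 counts, such as TERC, cannot be resolved at this depth.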
